A study of Mus musculus with 52 samples.

Results

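Ciliated control clone H12 was compared with the other 3 ciliated control clones of the series, D8, A4 and G7, to ask which genes differ between unedited clones of the same parental line. The 4 libraries of H12 were chosen by their clone label out of 52 libraries in the series, and the 12 libraries of D8, A4 and G7 formed the comparison group. All 4 clones were Cilia-APEX-IMCD3 cells, a line of mouse inner medullary collecting duct epithelium that carries an APEX peroxidase directed to the primary cilium. Each clone had been grown from a single sorted cell after transfection with the base editor BE4-Gam and a guide vector that held no target sequence, so none carried an intended Wdr34 or Wdr60 change. Ciliation had been induced by culture in starvation medium with reduced serum. The growth label of the same samples names medium with 10% serum. The 4 libraries of a clone were technical replicates, so the p-values below measure the spread between libraries and few clones. An exact permutation over the 4 clones could not give a p below 0.25 for 1 clone against 3.

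The primary cilium of a collecting duct cell is a sensory antenna that reads tubular flow and signals of the Hedgehog and Wnt families. Clones grown from single cells of such a line share its origin but can differ in which genes they express and how strongly.

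The H12 libraries held 16820381 to 18798432 counts and the other 12 held 14816218 to 28084979, with 13476 to 14358 genes detected in a library. In the multidimensional scaling of the 16 libraries, the first dimension (62.8% of variance) set G7 apart and the second (15.3%) set H12 apart. G7 also stood apart by Cdh1 and Epcam. Cdh1, encoding the adherens junction protein E-cadherin, was at 640 ± 4.1 CPM (counts scaled to a common library size, with TMM factors; SD, n = 4 libraries) in H12 and at 14.7 in G7, and Epcam was at 756 ± 9.4 and 13.8. Replicate 1 of A4 and replicate 4 of G7 differed most from the other libraries of their own clones. Of the principal cell markers, Aqp2 and Kcnj1 had 0 counts in all 16 libraries, and the list of 12 genes summed to 3.58 to 6.06 CPM in H12, 8.67 to 12.9 in D8, 3.44 to 4.47 in A4 and 9.03 to 11.7 in G7. The nephron transcription factors Pax2 (136 ± 4.3 CPM) and Pax8 (280 ± 6.4 CPM) and the kidney cadherin Cdh16 (462 ± 9.1 CPM) were present in H12. Scaled over all 52 libraries, Pax2 was at 310 CPM in G7 and 133 in H12, Pax8 at 419 and 275, and Cdh16 at 841 and 454. The summed endothelial markers were low in H12 (0.694 to 0.873 CPM), D8 (0.488 to 1.23), A4 (0.463 to 1.13) and G7 (0.622 to 1.27). The fibroblast markers summed to 2.10 to 3.13 CPM in H12, 1.86 to 2.89 in D8, 1.13 to 1.79 in A4 and 1.19 to 1.74 in G7. In bulk RNA, fewer cells of a type and less RNA per cell cannot be told apart. The leukocyte list, 92.2% Csf1r over the 16 libraries, summed to 276 to 303 CPM in H12, 194 to 226 in D8, 169 to 250 in A4 and 301 to 325 in G7. The proximal tubule markers, 95.7% Lrp2 over the 16 libraries, summed to 16.5 to 20.2 CPM in H12, below D8 (33.4 to 37.9), A4 (23.8 to 32.5) and G7 (323 to 559). The thick limb and distal tubule markers, 84.0% Trpm6 over the 16 libraries, summed to 23.4 to 25.5 CPM in H12, 29.1 to 35.7 in D8, 12.6 to 13.6 in A4 and 3.09 to 4.73 in G7. Of these, Umod, encoding the thick limb protein uromodulin, was at 9.91 ± 0.969 CPM in H12 and at 0 to 0.98 CPM in the other clone means, and was called higher (log2 fold change 4.57 ± 0.80, edgeR, adjusted p = 0.00085; adjusted p = 0.031 with the clone as a block). It was named after its values were seen. The list had 2 tested genes, of which 1 was above 0 on the log2 scale. The intercalated cell markers, 94.9% Car2 over the 16 libraries, summed to 18.6 to 25.2 CPM in H12 and 15.3 to 29.1 in A4. Of their 2 tested genes, Slc26a4 was called higher, but not with the clone as a block. The part of these marker levels in the results below was not tested.

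**Figure D1:**
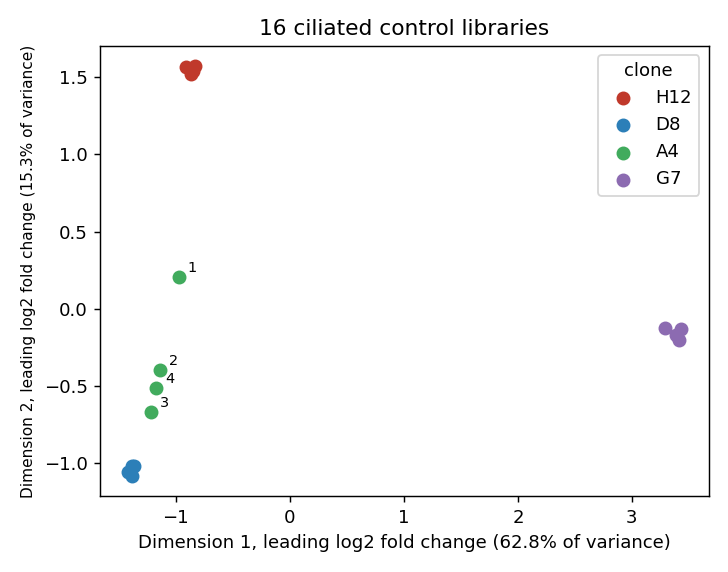
Multidimensional scaling of the 16 ciliated control libraries, with leading log2 fold changes on both axes and the share of variance each dimension holds. Points are libraries colored by clone, and numbers give the replicate of A4. The 4 H12 libraries lie close together at the top, G7 lies alone on the right, and A4 replicate 1 lies between A4 and H12.

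In edgeR's quasi-likelihood test over 12325 genes, 282 genes were called higher and 221 lower in H12, counting as called a gene whose Benjamini-Hochberg adjusted p was under 0.05 and whose levels differed by 1 or more on the log2 scale. These are 2.29% and 1.79% of the genes tested. The 4 H12 libraries lay wholly above the 12 others for 796 genes (6.46%) and wholly below them for 749 (6.08%). Of the called genes, 240 higher and 130 lower were separated in this way. The H12 mean was above all 3 other clone means for 282 of 282 genes called higher and below all 3 for 199 of 221 called lower. Among the genes called lower, 115 had G7 as the nearest clone mean, 65 had A4 and 41 had D8. Without G7, 480 genes were called higher and 575 lower, without D8 379 and 196, and without A4 346 and 294. Without A4 replicate 1 these counts were 318 and 251, and without G7 replicate 4 they were 296 and 263. Without any 1 H12 library, 211 to 232 genes were called higher and 129 to 134 lower. The counts depended strongly on how clones were treated. With the clone as a block in voomLmFit, which allows for correlation between libraries of a clone, 37 genes remained called higher and 4 lower, and with the libraries of each clone summed edgeR called 0 genes, of 336 with an unadjusted p under 0.05.

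The first 33 tested genes of chromosome 5, from Cdk6 to Sema3a, were higher in H12 almost without a gap. This run covered chr5:3341004-13603485 of GRCm38, and its limits were set from the log2 fold changes, so the counts over it are a description. Of its 33 genes, 30 were called higher, 30 were separated from all 12 other libraries, and the median log2 fold change was 2.08, with a range from 0.67 to 4.59. The next 10 tested genes, which begin with Sema3e, Sema3c and Magi2, had no call and a median log2 fold change of -0.32, from -0.68 to 0.61. The run held 0.268% of the genes tested and 10.6% of the genes called higher. In the fit with the clone as a block, it held 23 of the 37 genes called higher. Genomic DNA was not measured in these samples.

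**Figure D2:**
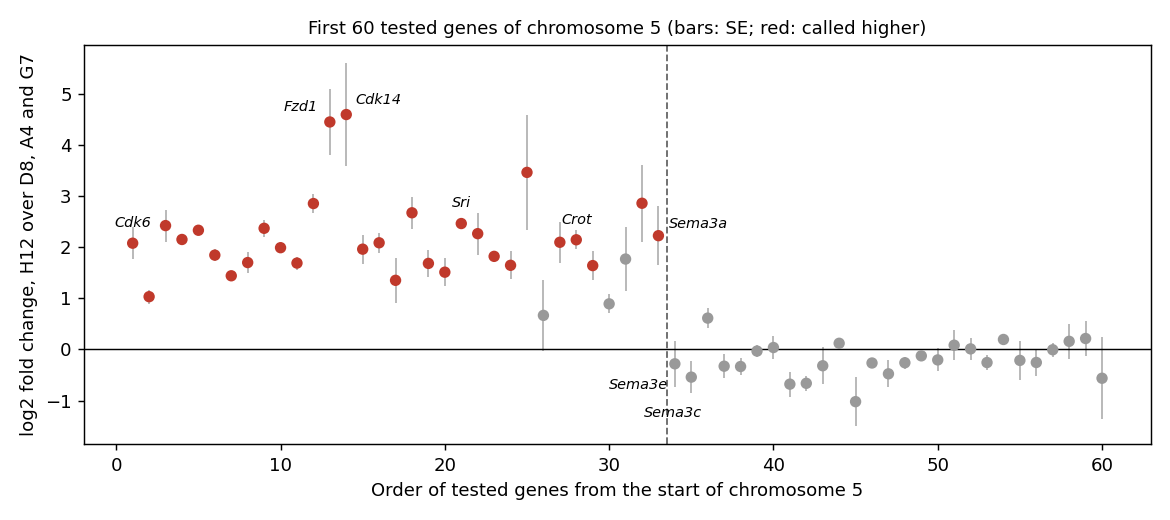
Log2 fold change of H12 over D8, A4 and G7 (edgeR) for the first 60 tested genes of chromosome 5, in chromosomal order. Points are genes, bars are standard errors, red marks genes called higher, and the dashed line follows the 33rd gene. Values before the line lie between 0.67 and 4.59, and those of the next 10 genes lie between -0.68 and 0.61.

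Cdk14 and Fzd1, next to each other in the run, had its largest differences. Cdk14 encodes a cyclin-dependent kinase that acts in Wnt signaling with membrane-bound cyclin Y, and Fzd1 encodes a Frizzled receptor for Wnt ligands. Their promoter windows, 250 bases before to 50 bases after the start in RefSeq GRCm38.p6, are shown because these neighbors differed most in level between the 4 clones. Capitals mark GGGCGG, the Sp1 core, in Cdk14 (chr5:5380202-5380501, minus strand) and TATAAA in Fzd1 (chr5:4758167-4758466, minus strand), on either strand.
Cdk14: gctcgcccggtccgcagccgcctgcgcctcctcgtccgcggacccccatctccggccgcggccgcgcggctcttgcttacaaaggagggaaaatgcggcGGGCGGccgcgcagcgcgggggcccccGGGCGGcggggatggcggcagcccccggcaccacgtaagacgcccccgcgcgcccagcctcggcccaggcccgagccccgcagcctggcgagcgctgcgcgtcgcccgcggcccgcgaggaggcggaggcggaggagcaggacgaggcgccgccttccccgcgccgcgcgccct
Fzd1: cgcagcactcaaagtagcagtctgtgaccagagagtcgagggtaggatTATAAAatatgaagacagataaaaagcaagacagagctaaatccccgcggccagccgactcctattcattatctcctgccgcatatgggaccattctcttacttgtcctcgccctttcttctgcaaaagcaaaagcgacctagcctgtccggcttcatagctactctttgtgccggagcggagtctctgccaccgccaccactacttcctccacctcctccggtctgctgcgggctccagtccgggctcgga
The Cdk14 window held 53 CpG dinucleotides and the Fzd1 window 16. TATAAA occurred in 6.46% of 9359 tested genes with a window and in 3 of 30 genes of the run, and GGGCGG occurred in 66.3% and in 16 of 30. The other motifs searched on both strands were TGANTCA, the AP-1 site, in 4.80% of windows and 1 of 30, and CATTCC, the TEAD core, in 11.8% and 3 of 30.

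Cdk14 stood at 230, 223, 214 and 234 CPM in the 4 H12 libraries, whereas the 12 others ranged from 0 to 27.8 CPM with a median of 2.24. All H12 libraries were above all others, and D8 (25.7 ± 2.01 CPM, n = 4) was well above G7 (2.40 ± 0.432) and A4 (0.125 ± 0.142). The log2 fold change was 4.59 ± 1.01 (SE, edgeR, adjusted p = 0.0048). Fzd1 stood at 111, 121, 104 and 107 CPM in H12 and at 0.787 to 12.9 CPM in the others, with a median of 2.52. D8 was again the highest of the other clones at 11.9 ± 0.751 CPM, and the log2 fold change was 4.44 ± 0.64 (edgeR, adjusted p = 0.00018).

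Other genes of the run were also higher in all H12 libraries than in the 12 others. Sri, encoding the calcium-binding protein sorcin, was at 389, 359, 377 and 347 CPM in H12 and at 53.3 to 78.8 CPM (median 65.9) in the other 12 libraries. The groups did not overlap, and the H12 mean was 5.50 times the mean of the other clones (log2 fold change 2.46 ± 0.08, edgeR, adjusted p = 7.8e-12). Crot, encoding peroxisomal carnitine octanoyltransferase, was at 194, 191, 193 and 194 CPM against 30.2 to 66.4 (median 36.1). H12 was 4.42 times as high for Crot, and G7 was the highest of the other clones. Akap9, encoding an anchoring protein of the centrosome and Golgi, was at 527, 456, 477 and 474 CPM against 95.8 to 145 (median 119), a ratio of 3.97. Dbf4, encoding the activator of the replication kinase Cdc7, was at 880, 693, 715 and 724 CPM against 170 to 249 (median 224), a ratio of 3.53. Replicate 1 of H12 was the highest for Akap9 and Dbf4, and for each of these 4 genes every H12 library lay above every other library. Cdk6, encoding a G1 cyclin-dependent kinase, was at 90.3, 93.6, 82.0 and 83.4 CPM against 7.66 to 31.1 (median 24.6), and the log2 fold change was 2.08 ± 0.32.

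Cyp51, the lanosterol demethylase of cholesterol synthesis, lies in the run and was the only 1 of 36 tested cholesterol and fatty acid synthesis genes that was called, which is 2.78% against 2.29% of all genes (log2 fold change 1.69 ± 0.13, edgeR, adjusted p = 3e-07). Likewise, the tight junction gene Cldn12 (1.96 ± 0.28) and the repulsive guidance cue genes Sema3a (2.22 ± 0.58) and Sema3d (2.86 ± 0.75) belong to the run. Sema3a lost its call without D8 (adjusted p = 0.070). Of the 3 run genes without a call, Dmtf1 was at a log2 fold change of 0.89 (adjusted p = 0.0036, edgeR), 9330182L06Rik at 1.77 (adjusted p = 0.056) and Abcb1a at 0.67 (adjusted p = 0.54). Abcb1a and Abcb1b, and Mterf1a and Mterf1b, are pairs of related genes. Reads could be split between such copies, which was not tested, so their counts are uncertain.

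The 52 libraries of the series form 13 groups, each a clone in a ciliated or non-ciliated state, so that a clone can be counted in both states. Across these groups, H12 was the highest for 27 of the 33 run genes, against 6.82% of all genes tested. The limits of the run had been set from H12 against D8, A4 and G7, which are among these groups, so this count is a description. Over the 26 run genes with a mean of at least 5 CPM, the median of log2(CPM + 0.5) relative to the median group was 1.69 in H12 and lay between -0.40 (A4) and 0.33 (non-ciliated Wdr60 mutant) in the other 12. These values were set over all 52 libraries, in which serum state and genotype also differ, and were not tested.

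Chromosome 6 differed as a whole. Its 594 tested genes had a median log2 fold change of -0.47 (quartiles -0.75 and -0.21), while the median of all genes tested was -0.04, and 86.5% of them were below 0. On this chromosome 44 genes were called lower (7.41%, against 1.79% of all genes) and 6 higher, which is 19.9% of all genes called lower. The first and second parts of the chromosome, split at the median gene, each had 22 genes called lower, with medians of -0.44 and -0.50. Against each clone on its own, the median difference in log2(CPM + 0.5) over 482 genes at 5 CPM or more was -0.45 for D8, -0.42 for A4 and -0.52 for G7. Chromosomes 3 (median log2 fold change 0.34, 33 genes higher and 6 lower), 4 (0.20, 40 and 11) and X (0.18, 14 and 1) were shifted the other way and together held 30.9% of the genes called higher and 14.2% of those tested. On chromosome 3 the difference from D8 (0.60) exceeded those from A4 (0.24) and G7 (0.24), and on chromosome 1 H12 was above G7 (0.33) and below D8 (-0.13) and A4 (-0.17). The shift of chromosome 6 was also found outside H12: relative to the median of the 13 groups, chromosome 6 was at -0.34 in H12, -0.36 in non-ciliated control AB and, in the Wdr60 mutant, at -0.35 in the non-ciliated and -0.33 in the ciliated state. Chromosome 3 was at 0.18 in H12 by the same measure and higher in the non-ciliated Wdr34 mutant (0.30), ciliated Wdr34 mutant clone 1 (0.23) and control AB (0.22). Chromosome 4 was at 0.15 in H12 and at 0.38 in ciliated Wdr34 mutant clone 3, and chromosome X was at 0.12 in H12 and at most 0.07 in the other groups.

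**Figure D3:**
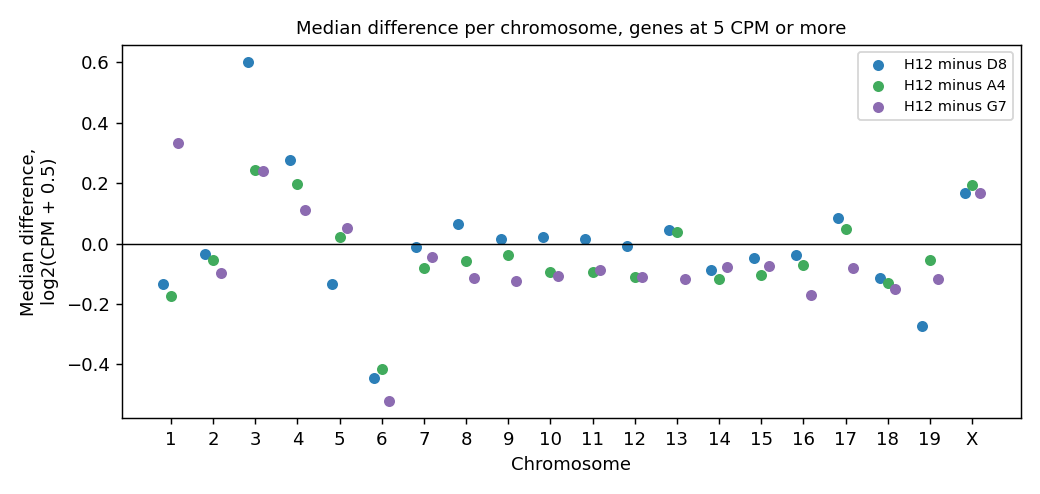
Median difference in log2(CPM + 0.5) between the H12 mean and the mean of each other ciliated control clone, per chromosome, over genes with a mean of at least 5 CPM in the other clones. Chromosome 6 lies between -0.52 and -0.42 for the 3 comparisons, and chromosomes 3, 4 and X lie above 0 for all 3.

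**Figure D4:**
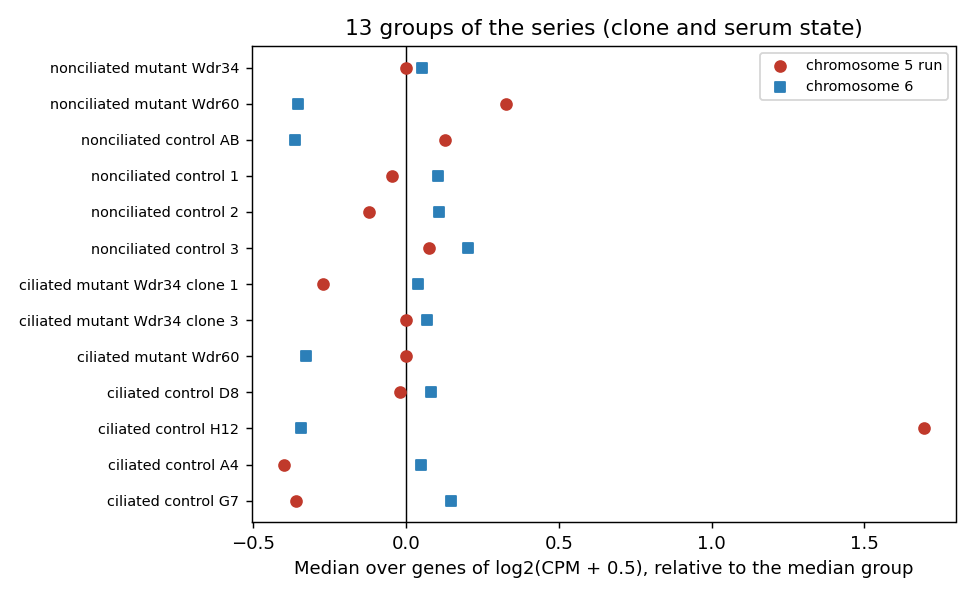
Median over genes of log2(CPM + 0.5) relative to the median group, for the chromosome 5 run (circles, 26 genes) and chromosome 6 (squares, 484 genes), in the 13 groups of the series, each a clone in 1 serum state. H12 lies at 1.69 for the run, and 4 groups, H12, control AB and the Wdr60 mutant in both states, lie between -0.36 and -0.33 for chromosome 6.

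Arnt2 had the largest decrease among genes of at least 10 CPM. It encodes a basic helix-loop-helix PAS protein that pairs with factors such as Sim1 and the hypoxia-inducible subunits. The 4 H12 libraries held 4, 1, 0 and 1 counts of Arnt2 (0.214, 0.0514, 0 and 0.0553 CPM), and the other 12 ranged from 41.6 to 65.9 CPM with a median of 56.8. Over all libraries this was 6 counts against 11407, a ratio of 695 (95% exact interval 319 to 1894, counting error only), with a log2 fold change of -9.31 ± 0.39 (edgeR, adjusted p = 1.3e-10). The gene lies at chr7:84246274-84411741. Its neighbor Abhd17c was at 88.3 CPM in H12 and 67.2 to 94.7 CPM in the other clone means, and Fah was at 7.98 CPM and 4.86 to 6.89, neither of them called, while the neighbor Gm2115 was called lower from a low level (0.0373 CPM against 0.259 to 1.30). In the wider series Arnt2 was at 0.06 CPM in the non-ciliated Wdr34 mutant, at 0.00 CPM in ciliated Wdr34 mutant clone 1 and at 7.36 CPM in clone 3, and the other 9 groups lay between 25.02 and 59.7 CPM. The Arnt2 promoter window (chr7:84409989-84410288, minus strand) is shown because H12 nearly lacked this gene's counts. Its start lies within the gene span given above and not at the outer end of that span. Capitals mark its single GGGCGG, and it held 40 CpG dinucleotides, above the median of 21 over tested genes.
Arnt2: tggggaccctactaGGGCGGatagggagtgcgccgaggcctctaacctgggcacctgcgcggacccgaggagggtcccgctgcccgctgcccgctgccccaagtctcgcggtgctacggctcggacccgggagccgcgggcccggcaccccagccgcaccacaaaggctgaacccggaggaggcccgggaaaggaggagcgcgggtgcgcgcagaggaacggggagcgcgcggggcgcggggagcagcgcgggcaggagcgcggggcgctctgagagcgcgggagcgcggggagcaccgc

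Sdc3, Ppp1r26, Tchh and Dhrs3 were among the 15 largest increases in H12 and lie outside the chromosome 5 run. Sdc3, encoding a heparan sulfate proteoglycan of the syndecan family, was at 10.4, 13.5, 10.3 and 11.01 CPM in H12 against 0.436 to 2.65 (median 1.06) in the others. The ranges were apart, with a log2 fold change of 3.15 ± 0.35 (edgeR, adjusted p = 1.7e-05), and in the wider series the highest other group was at 4.73 CPM. Ppp1r26, a regulator of protein phosphatase 1, was at 13.7, 14.0, 11.9 and 10.9 CPM against 0.747 to 2.73 (median 1.63). H12 was 7.40 times as high, but ciliated Wdr34 mutant clone 1 was higher still at 18.1 CPM. Tchh, encoding trichohyalin of hair follicle keratinocytes, was at 30.4, 30.3, 30.7 and 31.1 CPM against 0 to 6.83 (median 3.22). Dhrs3, a retinal reductase, was at 117, 112, 110 and 119 CPM against 9.30 to 78.7 (median 17.8). The high value of 78.7 came from A4, whose libraries spread widely for this gene (32.8 ± 31.4 CPM). Sdc3, Ppp1r26 and Tchh kept their call with the clone as a block, and Dhrs3 did not (adjusted p = 0.479). The other genes of the 15 largest increases were Rundc3b, Mterf1b, Cfap69 and Mterf1a of the run, with Foxo6, Gc and Sp6. Foxo6, a forkhead factor, was at 11.5 ± 3.42 CPM in H12 and at 0.0622 to 2.65 CPM in the other clone means, and Gc, the vitamin D binding protein, was at 18.8 ± 1.5 CPM against 0.186 to 5.04. Foxo6, Gc and Sp6 were not called with the clone as a block. In the wider series, Gc was higher in ciliated Wdr34 mutant clone 1 (32.2 CPM against 18.4 in H12). Sp6 was higher in non-ciliated control AB (12.4 CPM against 11.8). For Tchh, H12 (30.1 CPM) was followed by ciliated Wdr34 mutant clone 1 (25.1 CPM).

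**Figure D5:**
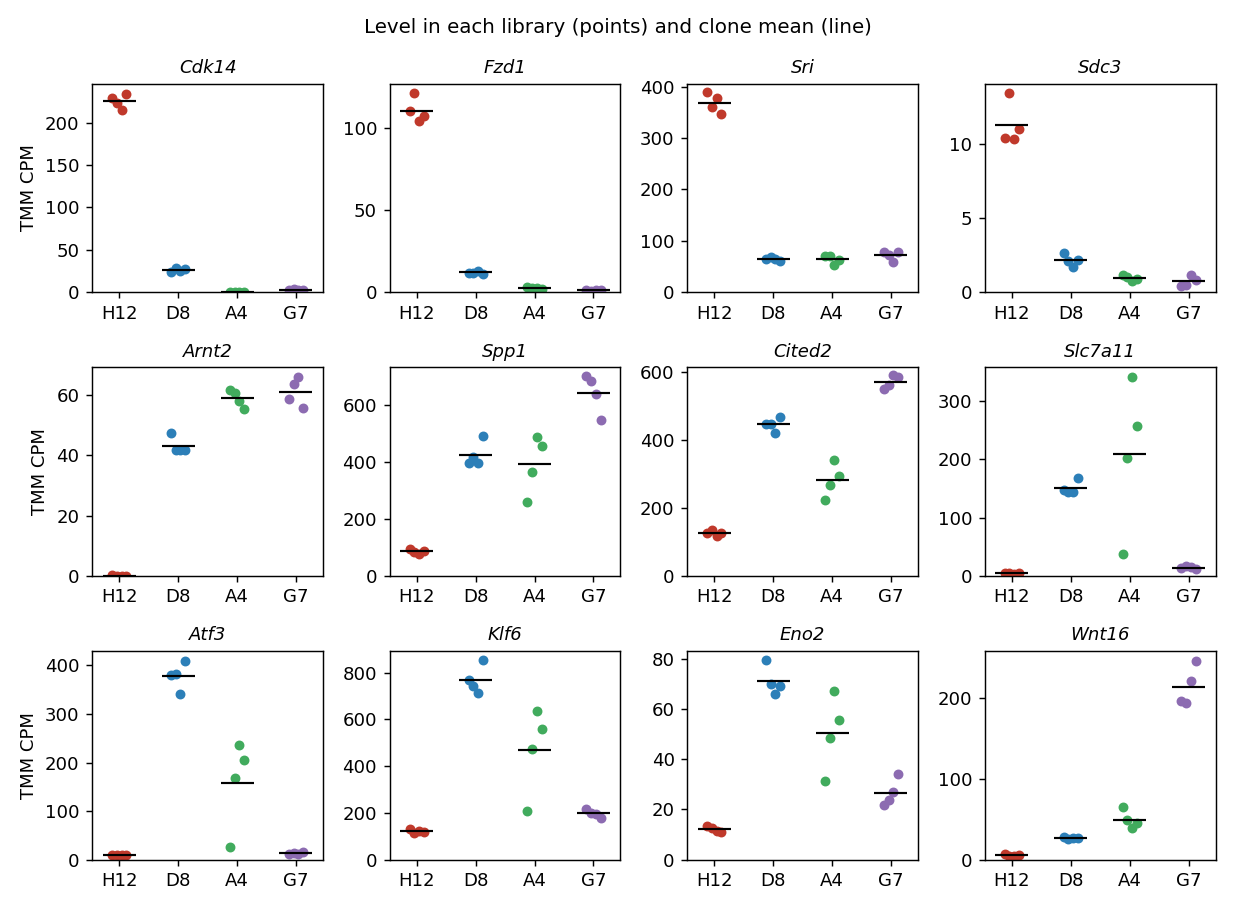
TMM-scaled CPM of 12 genes in each of the 16 libraries (points) and the mean of each clone (line), from 0 on a linear axis in each panel. Cdk14, Fzd1, Sri and Sdc3 lie above, and the other genes below, the libraries of all other clones in H12, and for Slc7a11, Atf3 and Klf6 the G7 libraries lie nearest to H12.

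Spp1, Cited2 and Galnt7 were, with Arnt2, the 4 genes called lower with the clone as a block. Spp1, encoding the secreted matrix protein osteopontin, was at 95.8, 84.3, 77.0 and 86.7 CPM in H12 against 259 to 700 (median 472). The groups did not overlap, and the log2 fold change was -2.50 ± 0.24 (edgeR, adjusted p = 3.8e-06; adjusted p = 0.024 with the clone as a block). Cited2, a transcriptional coregulator that competes with hypoxia-inducible factors for their coactivator, was at 126, 134, 117 and 125 CPM against 223 to 589 (median 447). Galnt7, a Golgi enzyme of mucin-type O-glycosylation, was at 9.19, 8.78, 8.90 and 9.24 CPM against 27.3 to 44.2 (median 34.7). Each of the 3 was lowest in H12 among the 13 groups of the series, where the next group was at 92.0 CPM for Spp1, 162 CPM for Cited2 and 27.1 CPM for Galnt7. Cited2 and Galnt7 were named after their values were seen. Elfn1, a synaptic adhesion gene, was at 0.205 to 0.588 CPM in H12 against 0.80 to 32.2 CPM, with clone means that differed widely between D8 (1.30 CPM) and G7 (26.9 CPM). Speg, a muscle-type kinase gene, was at 3.05 ± 0.815 CPM in H12 and at 15.2 to 39.1 CPM in the other clone means (log2 fold change -3.25 ± 0.41, edgeR, adjusted p = 5.2e-05). Sytl2, Bdh2, Pros1 and Ociad2 were also among the 15 largest decreases, and for each of them G7 was far above the other clones. Sytl2 was at 0.849 ± 0.141 CPM in H12, 1.48 in D8, 3.26 in A4 and 68.2 in G7. Sema7a and Creb5 had the reverse order, with D8 and A4 high: Creb5, a bZIP factor gene on chromosome 6, was at 5.65 ± 1.34 CPM in H12, 60.6 in D8, 38.4 in A4 and 10.8 in G7.

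Wnt pathway genes changed in both directions. Of 37 tested ligands, receptors, inhibitors and targets, 4 rose (Fzd1, Wnt4, Wnt9a and Lef1) and 2 fell (Wnt16 and Dact2), against 2.29% and 1.79% of all genes, with a median log2 fold change of -0.08. DESeq2 called 5 higher and 4 lower, and with the clone as a block only Fzd1 kept its call (Wnt4 adjusted p = 0.185, Wnt16 adjusted p = 0.334). Wnt4, the ligand that drives tubule formation in the kidney, was at 74.3, 76.6, 69.4 and 70.0 CPM in H12 against 11.6 to 53.01 (median 26.3). Its H12 libraries lay above all others, with a log2 fold change of 1.47 ± 0.31 (edgeR, adjusted p = 0.0035). Wnt9a, another Wnt ligand, was at 40.4 ± 2.2 CPM in H12, 24.5 in D8, 23.3 in A4 and 8.60 in G7. Lef1, the nuclear partner of beta-catenin, was at 20.1 ± 0.87 CPM in H12 and between 8.75 and 11.5 CPM in the other clone means. Wnt16 on chromosome 6 was at 6.89, 5.08, 5.07 and 5.26 CPM against 25.6 to 246 (median 47.4), and G7 was the highest clone at 214 ± 24.5 CPM. Of 46 axon guidance genes, 5 rose and 4 fell, against 2.29% and 1.79% of all genes, with a median of -0.00, and 0 were called with the clone as a block. Besides the 2 genes of the run, Sema6c (58.5 ± 9.2 CPM in H12, 14.5 to 29.8 in the other clone means) and Sema4g (46.3 ± 4.1 against 7.08 to 30.9) rose. Plxnd1, a semaphorin receptor gene on chromosome 6, fell (36.7 ± 0.902 CPM against 76.7 to 169).

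Immediate early genes are the rapid transcriptional response to growth factors and stress. Of 37 tested, 9 fell in H12 (24.3%, against 1.79% of all genes), and the median log2 fold change was -1.49, with 37 of 37 below 0. DESeq2 called 19 lower, and the clone block left 0 called. Atf3, a stress-induced bZIP factor, was at 10.2, 10.6, 9.70 and 10.3 CPM in H12 against 12.2 to 409 (median 187). G7 was near H12 (12.2 to 16.3 CPM), D8 was high (342 to 409 CPM), and A4 held 1 low library (26.4 CPM, replicate 1) and 3 higher ones (168, 236 and 205 CPM). The log2 fold change was -4.17 ± 1.16 (edgeR, adjusted p = 0.019), and the call was lost without any 1 H12 library (adjusted p = 0.057 to 0.064) and without D8 (0.058). Klf6, a zinc finger factor, was at 132, 115, 121 and 120 CPM in H12 against 179 to 854 (median 516), and its log2 fold change was -1.97 ± 0.48 (edgeR, adjusted p = 0.0086). Jun, the AP-1 subunit, was at 78.2, 76.8, 77.4 and 84.7 CPM and overlapped with G7 (83.9 to 98.5 CPM). Its call (adjusted p = 0.031) was lost without any 1 H12 library, without D8 (0.107), without A4 (0.057) and with the replicate number as a block (0.068). Without G7, 33 of the list fell, whereas without A4 4 did and without D8 2 did. Over all genes tested, 575 were called lower without G7, 294 without A4 and 196 without D8. Replicate 1 of A4 was the lowest of its clone for Atf3, Klf6 and Jun. These genes kept their calls without this library, and its part in the other results of the list was not tested.

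Nrf2 is the transcription factor that raises glutathione synthesis and detoxification genes upon oxidative stress. Of 47 tested members of the list, 10 fell and 1 rose (Cbr3), against 1.79% and 2.29% of all genes, with a median log2 fold change of -0.43. Without D8 4 fell, without A4 5 and without G7 17, where 196, 294 and 575 of all genes tested were called lower. Slc7a11, the cystine importer that feeds glutathione synthesis, was at 4.70, 4.21, 3.88 and 5.26 CPM in H12 against 11.1 to 341 (median 144). The log2 fold change was -4.79 ± 1.07 (edgeR, adjusted p = 0.0053). H12 was the lowest of the 13 groups of the series, in which the other 12 ranged from 10.5 to 207 CPM. Of these, A4 (207 CPM) and D8 (149 CPM) stood far above the rest. The next group was the non-ciliated Wdr60 mutant at 39.5 CPM, and G7 was at 13.5 CPM. Gclc, the catalytic subunit of the enzyme that makes the glutathione precursor, was at 232, 187, 189 and 195 CPM against 321 to 1224 (median 553), without overlap. Hmox1, heme oxygenase 1, was at 33.1, 32.4, 32.9 and 33.9 CPM and overlapped with G7 (33.6 to 37.9 CPM), whereas D8 was at 1081 to 1256 CPM. Scaled over the whole series, Hmox1 was at 1160 CPM in D8 and 871 in A4, and the next group was non-ciliated control 1 at 176. Srxn1, which repairs oxidized peroxiredoxins, was at 46.5, 47.7, 47.9 and 47.0 CPM against 50.9 to 266 (median 230), and the gap to G7 (50.9 to 53.6 CPM) was small. Srxn1 and Hmox1 lost their calls without D8 (adjusted p = 0.078 and 0.059) and without any 1 H12 library (0.055 to 0.066), and Srxn1 also without A4 (0.064). The Srxn1 window (chr2:152105274-152105573, plus strand) is shown because it held 2 matches of the AP-1 motif TGANTCA, in capitals.
Srxn1: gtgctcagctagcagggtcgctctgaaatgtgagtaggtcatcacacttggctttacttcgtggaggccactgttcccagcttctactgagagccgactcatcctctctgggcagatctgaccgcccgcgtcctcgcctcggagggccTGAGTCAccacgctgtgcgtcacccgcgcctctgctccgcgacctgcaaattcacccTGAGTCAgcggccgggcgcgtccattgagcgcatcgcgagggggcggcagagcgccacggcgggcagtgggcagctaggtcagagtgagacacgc
Of tested genes with a window 4.80% held this motif, and 3 of the 7 called lower Nrf2 list genes with a window did. It was in 5.17% of all called lower genes, 8.25% of called higher genes and 0 of 9 called lower immediate early genes with a window. With the clone as a block no gene of the list was called (Slc7a11, adjusted p = 0.906), against 10 lower and 1 higher in the edgeR fit and 12 lower and 1 higher in DESeq2.

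Gdf15, a secreted stress cytokine, was at 59.4, 57.4, 58.7 and 62.5 CPM in H12 against 85.1 to 653 (median 556), with G7 at 94.0 ± 8.8 CPM (log2 fold change -2.74 ± 0.67, edgeR, adjusted p = 0.0092). Of 42 genes of the ER stress and Atf4 response, 4 fell (Slc7a11, Trib3, Mthfd2 and Ddit3) and 1 rose (Slc7a3), with a median of -0.11. Of 41 tested cytokine and receptor genes, 4 fell (Il11, Cxcl1, Cxcl5 and Ackr3), with a median of -0.54, and DESeq2 called 8 lower and 1 higher. Among 26 YAP and SRF target genes 4 fell (Ankrd1, Dock5, Axl and Gadd45a), with a median of -0.31. For these 3 lists the shares over all genes were 2.29% higher and 1.79% lower, and with the clone as a block 0 of their genes were called. Dock5, a Rac exchange factor, was at 16.04 ± 1.1 CPM in H12 and at 38.6 to 53.6 CPM in the other clone means. Axl, a receptor tyrosine kinase, was at 83.6 ± 3.7 CPM against 150 to 234.

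Of 34 tested glycolysis and hypoxia response genes, 8 fell and 1 rose, against 1.79% and 2.29% of all genes, with a median log2 fold change of -0.90, and 3 of the 8 (Eno2, Gapdh and Kdm3a) lie on chromosome 6. The clone block left 0 of the list called. Eno2, an enolase, was at 13.4, 12.8, 11.6 and 10.8 CPM in H12 against 21.9 to 79.5 (median 52.1), with a log2 fold change of -2.02 ± 0.36 (edgeR, adjusted p = 0.0011). Aldoa, an aldolase on chromosome 7, was at 417, 483, 432 and 438 CPM against 668 to 1257 (median 940), without overlap (-1.06 ± 0.16). Kdm3a, a hypoxia-induced histone demethylase, was at 130, 99.2, 101 and 109 CPM against 164 to 322 (median 237). Without A4 Aldoa was at -0.95 and without D8 Kdm3a was at -0.97, just under the fold threshold. Without G7 18 genes of the list fell, and without A4 or D8 5 did. Over all genes tested, 575 were called lower without G7, 294 without A4 and 196 without D8. Gapdh has many near-identical pseudogenes, and its level of 11.99 ± 1.7 CPM in H12 is uncertain. Of 16 tested complement and acute phase genes, 6 fell (1.79% of all genes fell) and 1 rose (median -1.23), and 3 of the 6 (C1s1, C1ra and C1rl) lie on chromosome 6 with less than 1 CPM in H12, D8 and A4 and 18.2, 28.7 and 2.72 CPM in G7. With the clone as a block, 0 complement genes were called.

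Of 45 tested interferon-stimulated and antigen presentation genes, 5 rose (11.1%, against 2.29% of all genes), namely Oasl2, Gbp6, Oas1b, Ifih1 and H2-T23, and the median log2 fold change was 0.47, with 35 above 0. In the clone block 0 were called. Ifih1, the cytosolic sensor of long double-stranded RNA, was at 24.2, 21.1, 20.6 and 21.1 CPM in H12 against 1.74 to 14.0 (median 6.44). Oasl2, a member of the 2-5-oligoadenylate synthetase family, was at 8.12, 5.55, 6.02 and 6.86 CPM against 0.141 to 3.77 (median 0.983). Both were separated from all others and rose by 1.68 ± 0.44 (edgeR, adjusted p = 0.014) and 2.47 ± 0.60 (adjusted p = 0.0085) on the log2 scale. Ifih1 lost its call without D8 (adjusted p = 0.057). Without D8 3 genes of the list rose, without A4 10 and without G7 15, where 379, 346 and 480 of all genes tested were called higher.

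Among 26 tested imprinted genes, which are expressed from the allele of a single parent, 6 fell (H19, Gatm, Igf2, Peg3, Mest and Usp29) and 1 rose (Kcnq1), against 1.79% and 2.29% of all genes, with a median of -0.56. With the clone as a block 0 were called (Peg3 adjusted p = 0.254). Peg3, a paternally expressed zinc finger gene, was at 94.8, 81.3, 84.3 and 87.8 CPM in H12 against 193 to 461 (median 285), without overlap, and the log2 fold change was -1.85 ± 0.23 (edgeR, adjusted p = 4.4e-05). Usp29, which shares the imprinted domain of Peg3 on chromosome 7, was at 1.48 ± 0.17 CPM against 3.72 to 4.30 in the other clone means. Mest on chromosome 6 was at 3.405 ± 0.51 CPM against 6.99 to 10.7. H19 and Igf2 were under 0.1 CPM in H12 and varied between 0.102 and 8.87 CPM (H19) and 0.174 and 2.72 CPM (Igf2) in the other clone means. Of 41 growth factor ligand and receptor genes, 2 rose and 6 fell, against 2.29% and 1.79% of all genes, with a median of -0.08, and 0 were called with the clone as a block. Areg and Btc, ligands of the EGF receptor, were at 0.365 ± 0.17 and 1.94 ± 0.59 CPM in H12, at 57.5 and 23.5 CPM in D8 and at 0 and 1.65 CPM in G7.

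Over all 12325 genes, 2.29% were called higher, 1.79% lower, and 4157 had an unadjusted p under 0.05, so that a list of these sizes holds few calls at the background share. Of 52 tested intraflagellar transport and dynein-2 genes, 0 were called by edgeR, 22 had an unadjusted p under 0.05, and DESeq2 called 2 higher, while the median log2 fold change was 0.19. The H12 libraries lay wholly above the others for 9 of the 52 and wholly below for 2, against 6.46% and 6.08% of all genes tested. Wdr34 was at 43.7 ± 1.9 CPM in H12 and 31.6 to 44.5 CPM in the other clone means (log2 fold change 0.13 ± 0.15), and Wdr60 was at 24.4 ± 1.4 against 22.2 to 26.02 (-0.00 ± 0.09). For the 10 tested Hedgehog signaling genes edgeR called 0, with 2 at an unadjusted p under 0.05 and 0 in DESeq2. The 49 DNA replication genes (20 at an unadjusted p under 0.05) and the 51 mitosis genes (9) had 0 calls by both tools, with medians of -0.07 and 0.12. Of 31 epithelial identity genes edgeR called 0, with 4 at an unadjusted p under 0.05 and 1 lower in DESeq2. Cdh1 and Epcam, which G7 nearly lacked, were at 624 and 646 CPM in D8 and at 660 and 851 CPM in A4, and without G7 their log2 fold changes were 0.01 (adjusted p = 0.92, edgeR) and 0.03 (adjusted p = 0.85, edgeR). With each clone as a group in edgeR, where the 3 other clones weigh equally on the log scale, Cdh1 (1.81, adjusted p = 6.1e-13) and Epcam (1.94, adjusted p = 2e-15) were called higher. The p-values of this fit measure only the spread between technical libraries of a clone and hold no spread between clones. Of 10 tested collecting duct transport genes, 1 rose and 2 fell (Nr3c2 and Atp1b1), with a median log2 fold change of -0.81, and 0 were called with the clone as a block. Scnn1a, the alpha subunit of the epithelial sodium channel, rose (5.56 ± 0.55 CPM against 0.963 to 3.26), and Nr3c2, the mineralocorticoid receptor, fell (6.06 ± 0.98 CPM against 9.28 to 25.1).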

How the data were processed

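RNA of 4 ciliated control clones (4 libraries each) had been sequenced as paired-end reads by the authors, aligned to GRCm38/mm10 and assigned to gene symbols with featureCounts. The deposited files hold these raw counts. The strand and multimapping settings are not given in the sources used here, so counts of overlapping genes and near copies are uncertain. From these counts, 12325 of 24421 symbols passed filterByExpr and were tested for H12 against D8, A4 and G7 with edgeR 4.0.16 (TMM, glmQLFit and glmQLFTest, 2-sided) in R 4.3.3, as 2 groups of 4 and 12 libraries. Coordinates came from RefSeq GRCm38.p6, which matched 12292 tested symbols. The study's methods used DESeq2; here DESeq2 1.42.0 and limma 3.58.1 were alternatives, with other filters and scalings, clones as groups, sums or blocks, and each library or clone left out.

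The genes named were, among called genes with separated libraries and a mean of at least 10 CPM in the higher group, the 15 with the largest log2 fold change in each direction; for each gene list, the called member with the largest change in each direction, or all called members where 4 or more were called; and 8 identity genes. Some genes that met these rules are not reported here. Genes of the chromosome 5 run and the neighbors of Arnt2 were added after their values were seen. Members and lists were chosen with earlier results of these data known. Depth limits genes under about 1 CPM, and intervals cover counting error only. Replicate numbers were not used to pair libraries.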

Additional observations from a re-analysis of the deposited data

Results flagged for a closer look

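For 36 genes described in the report, each clone's 4 libraries were examined for a library far from the other 3, which gave 8 such cases among 144 groups of 4, where chance alone gives about 1 in 20. The value given first is the gap to the nearest library divided by the whole range of the group. Of the 8, 4 were replicate 1 of H12: Wnt16 (0.898; 6.89 CPM against 5.07 to 5.26), Ifih1 (0.859; 24.2 against 20.6 to 21.1), Steap2 (0.857; 1236 against 1002 to 1036) and Dbf4 (0.836; 880 against 693 to 724). In each of these the replicate was the highest of its clone. Replicate 1 of D8 was the highest of its clone for Arnt2 (0.968; 47.3 CPM against 41.6 to 41.8) and for Peg3 (0.866; 286 against 236 to 242). Replicate 1 of A4 was the lowest of its clone for Srxn1 (0.835; 125 CPM against 235 to 256), and replicate 4 of G7 was the lowest for Dbf4 (0.861; 177 against 232 to 240).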

How the results depend on the processing

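The counts reported were 282 genes higher and 221 lower. With at least 10 counts required in every library, 172 genes were higher. DESeq2 gave 412 lower. With each clone as a group the counts were 791 and 337, with the libraries of each clone summed 0 and 0, with the clone as a block in voomLmFit 37 and 4, at an adjusted p under 0.05 alone 1099 and 1335, at an adjusted p under 0.01 181 and 109, and with glmTreat against a log2 fold change of 1 41 and 14. The p-values with each clone as a group measure only the spread between libraries of a clone. Leaving out clone G7 gave 480 and 575, leaving out D8 379 and 196, and leaving out A4 346 and 294. Leaving out 1 library at a time gave 211 to 318 genes higher and 129 to 263 lower, with the lowest counts of genes lower (129 to 134) without an H12 library. The replicate block gave 227 genes higher and 144 lower. The correlation of same-numbered deviations was above 0.1 in 4 of 24 pairs and ranged from -0.24 to 0.28. Libraries with different numbers were not compared in this way, so whether the numbers pair the libraries was not tested. Without scaling factors the median of all genes moved from -0.04 to 0.09 on the log2 scale, with 407 genes higher and 166 lower. No named gene that was called changed its direction under the alternatives run, apart from Umod, Atp1b1 and Slc26a4, which were not examined for this. The cause of the changes in counts was not tested. Of the genes of the chromosome 5 run, 24 to 32 were called higher under the alternatives other than the clone sums (0), the clone block (23) and glmTreat (15).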
